A study of Homo sapiens with 6 samples.

Results

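The 39 HOX genes of the HOXA, HOXB, HOXC and HOXD clusters were examined for polyadenylated 3′ ends in IMR-32, an established line of human neuroblastoma cells. The genes were chosen by symbol (HOX, a cluster letter and a number) among 20046 protein-coding genes of Gencode release 44. All peaks of a pooled poly(A) 3′-seq peak list whose summit lay in a HOX gene body or up to 4 kb past its 3′ end were taken, which gave 49 of the 200023 peaks in the list. Of these, 33 lay in the window of 1 HOX gene and 16 in the windows of 2 overlapping genes, so that the 49 peaks made 65 assignments.

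Poly(A) 3′-seq here used a library kit that primes on the poly(A) tail, so reads pile up where transcripts are cleaved. The series held 6 libraries in 3 groups: 2 of cells treated with DMSO as the solvent, 2 of cells treated for 2 h with THZ531 at 400 nM and 2 treated for 6 h at that dose. This compound binds covalently to CDK12 and CDK13, kinases that phosphorylate RNA polymerase II during elongation, and inhibits them. All groups were the same cell line, with no allele or transgene named, and the labels call the duplicates biological.

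Peaks were called once by the authors, on reads merged over samples that are assumed here to be the 6 libraries. No strand and no value per library stand in the list. Treated and DMSO cells therefore could not be compared, no replicate spread could be computed, and no test was possible. Every value below describes the pooled cells, of which treated cells are part. Peak height is given as reads at the summit, solved from the peak caller's fold enrichment and −log10 p-value. The stated settings leave the caller's default of 1 read per position and strand, under which a pileup of 100-bp extended reads cannot pass 200, the highest value in the list. Heights are therefore compressed, are not transcript levels, and were not normalised to library depth, which is unknown. An absent peak means only that none was called at this depth. The lowest pileup with a call anywhere in the list was 3 reads.

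HOX genes encode homeodomain transcription factors that give cells their position along the body axis. They lie in clusters in which all HOX genes are transcribed in the same direction, and the order of the genes follows the order in which they are used, from group 1 genes toward the head to group 13 genes toward the tail and limb ends. Genes with the same number in different clusters are paralogues. Sympathetic neuroblasts, from which neuroblastoma arises, derive from trunk neural crest. The cell label was checked by marker genes: all 12 sympathetic neuroblast markers had a transcript-end peak, with 19 to 123 reads at the tallest, led by PHOX2A with 123 and MYCN with 100. Such a peak was found for 3 of 6 fibroblast markers (6 to 15 reads), for 1 of 4 epithelial or hepatic markers (EPCAM, 7 reads) and for 0 of 4 haematopoietic markers.

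A peak was counted at a transcript end when its summit lay at most 200 bp before or 600 bp after an end of the gene in the annotation. Of the 39 HOX genes, 12 (30.8%) had at least 1 such transcript-end peak, against 67.4% of all protein-coding genes under the same rule. The same 12 genes were the only HOX genes with any peak in the gene body or up to 4 kb past it, a criterion met by 81.1% of all protein-coding genes. HOX genes were short, with a median gene length of 4.22 kb against 27.4 kb for all protein-coding genes. Among the 11162 protein-coding genes whose length lay in the range of the 12 HOX genes (1.68 to 40.2 kb), 63.9% had a transcript-end peak. The 27 HOX genes with no peak were not shorter, with a median of 4.22 kb against 3.50 kb for the 12 with one. With only peaks of −log10 q of at least 5, the cutoff used in the study, 11 HOX genes kept a transcript-end peak, against 64.0% of all protein-coding genes. At that cutoff 11 HOX genes had any peak, against 76.9% of all protein-coding genes. The shares of genes with any peak were not computed for genes of like length, and a longer gene gives a larger window.

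The 12 genes fell into 2 of the clusters. HOXC had 5 of its 9 genes with a transcript-end peak (HOXC4, HOXC5, HOXC6, HOXC8 and HOXC9) and HOXD had 7 of 9 (HOXD1, HOXD3, HOXD4, HOXD8, HOXD9, HOXD10 and HOXD13). In HOXA 0 of 11 genes and in HOXB 0 of 10 genes had a peak of any kind. Missing within the clusters with 3′ ends were HOXC10, HOXC11, HOXC12, HOXC13, HOXD11 and HOXD12. By paralogue group, groups 4, 8 and 9 had a 3′ end in both HOXC and HOXD. Groups 1, 3, 10 and 13 had one in HOXD and groups 5 and 6 in HOXC. Groups 2 and 7, which exist only in HOXA and HOXB, had none, and neither had groups 11 and 12. The list has no strand, and all transcript-end peaks of HOXD1, HOXD8 and HOXD9 also lay inside opposite-strand genes. Without such peaks only group 4 had a 3′ end in both HOXC and HOXD, and group 1 had none.

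**Figure D1:**
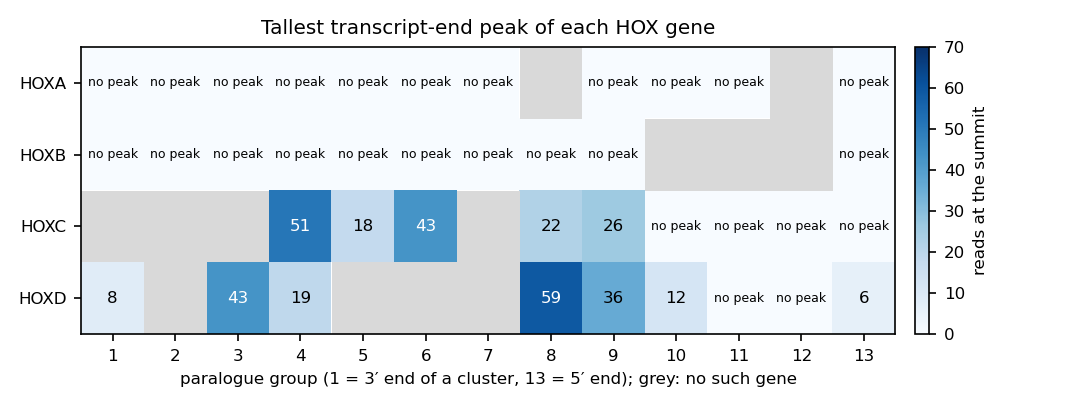
Tallest transcript-end peak of each of the 39 HOX genes, in reads at the summit of the pooled list, with clusters in rows and paralogue groups in columns; grey cells have no gene. All values lie in HOXC (18 to 51 reads) and HOXD (6 to 59 reads), and HOXA and HOXB have no peak. The values of HOXD1, HOXD3, HOXD8 and HOXD9 come from peaks that also lie in a gene on the opposite strand.

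The sequences at the 3′ edge of the peaks show which hexamers lie there on the HOX strand. Cleavage and polyadenylation usually follow a hexamer, most often AATAAA, a short way upstream. The 3 tallest transcript-end peaks of each cluster whose 3′ edge lay within 10 bp of an annotated transcript end are shown as 30 bases of the plus strand of GRCh38, 5′ to 3′, with the hexamer in capitals. They lie at chr12:54055990-54056019 (HOXC4), chr12:54030782-54030811 (HOXC6), chr12:54012733-54012762 (HOXC8), chr2:176173067-176173096 (HOXD3), chr2:176124880-176124909 (HOXD9) and chr2:176153196-176153225 (HOXD4), each just before a transcript end of its gene.
HOXC4: cccgtgatcaatAATAAAccagtggatgtg
HOXC6: tctcgaatatttAATAAAactgatattatt
HOXC8: gtgagtcataatAATAAAaagaagaagaaa
HOXD3: acaaatatttagAATAAAaaaatttcccag
HOXD9: ctgcttcctactAATAAAtgctgacctgat
HOXD4: tcttggcgagtcATTAAActtatgaaaatc
The HOXD3 and HOXD9 peaks also lie in genes on the opposite strand, so their strand is not known from the list. In 5 of the 6 the hexamer was AATAAA and in HOXD4 it was ATTAAA. It began 29 bp before the edge of the peak in HOXC4, 24 in HOXC6, 25 in HOXC8, 30 in HOXD3, 38 in HOXD9 and 18 in HOXD4.

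In the HOXC cluster (chr12:53938831-54056030, plus strand, 117 kb), the peaks lay in the part that holds groups 9 to 4. The 19 HOXC peaks had a median of 19 reads (9 to 51) and spread over 58.7 kb. Going upstream from the first of them, no peak was found for 274.0 kb, a stretch that takes in HOXC13, HOXC12, HOXC11 and HOXC10. The tallest was at the end of HOXC4, a group 4 gene of the neck region, with 51 reads (chr12:54055880-54056030, −log10 q 33.8), taller than the tallest transcript-end peak of 92.2% of protein-coding genes that had one. HOXC6, used in the brachial and thoracic spinal cord, had 43 reads at chr12:54030542-54030817, with the highest −log10 q of all HOX peaks, 40.8. HOXC9, which organises the thoracic motor neurons, reached 26 reads in a broad peak at chr12:54002545-54003098. This peak was 554 bp wide, the widest of the 49, and ended 200 bp before the nearest annotated end. It had no hexamer in the 100 bp before its edge, and 52% of the 50 bases past it were A. HOXC8, another gene of the thoracic level, had 22 reads at its annotated end (chr12:54012520-54012769). HOXC5 had the lowest peak of the 5, with 18 reads (chr12:54035257-54035361), and this was its only peak. It also lay in the transcript-end window of other annotated genes on the same strand, so it cannot be given to HOXC5 alone.

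In the HOXD cluster (chr2:176092721-176190907, plus strand, 98.2 kb), 3′ ends were found from the first gene, HOXD13, to the last, HOXD1. The 30 HOXD peaks had a median of 28 reads (6 to 60) and spread over 95.7 kb. Divided by the span from the first to the last gene, they gave 3.06 peaks per 10 kb. The same value was 1.62 in HOXC, and the genome had 0.646. Both cluster values include peaks past the last gene, since 29 HOXD and 16 HOXC peaks lay inside the spans. They also include peaks in or at opposite-strand genes, which cannot be given to HOX transcripts. Of the HOXD peaks 10 lay inside HOXD-AS2 and 6 inside HAGLR, whereas only 2 HOXC peaks lay in or at such a gene. Density and median height per cluster were not computed without them, so a difference between HOXD and HOXC transcripts is not shown. The height of the transcript-end peaks differed along the cluster. HOXD8 had the tallest, 59 reads at chr2:176131875-176132369, HOXD3 had 43 at chr2:176172989-176173108 and HOXD9 had 36 at chr2:176124818-176124929. HOXD4, a gene of the hindbrain and neck, had 19 (chr2:176153124-176153225). HOXD10, known for its part in lumbar motor neurons, had 12 (chr2:176119838-176119937). The genes at both ends of the cluster had the lowest peaks. HOXD1 had 8 reads (chr2:176190808-176190910), in a peak that also lies inside a gene on the opposite strand. HOXD13, a gene of the digits and the genital tubercle, had 6 (chr2:176095841-176095943). Its −log10 q was 4.76, the only one below the cutoff of 5 among the tallest transcript-end peaks of the 12 genes. With no replicate values, the order of these heights has no error attached. The median of the tallest transcript-end peak was 24 reads over the 12 HOX genes and also 24 over the 13513 protein-coding genes that had one.

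**Figure D2:**
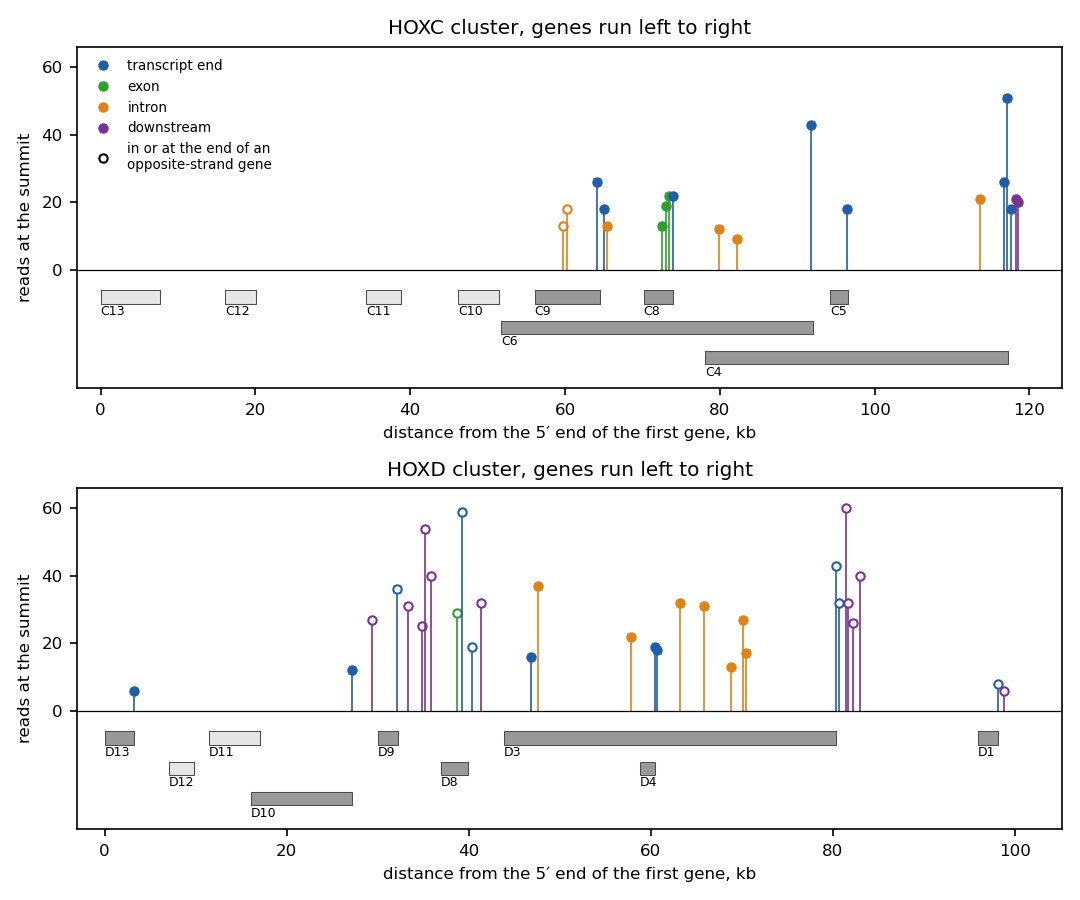
Height of the 19 HOXC and 30 HOXD peaks against their distance from the 5′ end of the first gene; boxes are gene bodies, dark where the gene has a transcript-end peak, colours give the position of the peak and open circles mark peaks in or at the end of a gene on the opposite strand. The HOXC peaks begin at HOXC9, whereas the HOXD peaks reach both ends of the cluster, with 6 reads at HOXD13 and 8 at HOXD1. The HOXD1 peak lies in a gene on the opposite strand.

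The HOXA cluster (chr7:27092993-27200091, minus strand, 107 kb) held no peak at all, and no summit was found over the 222.2 kb between positions 27045824 and 27268013. HOXB (chr17:48528526-48728750, minus strand, 200 kb) held 1 peak outside the HOX windows, with 5 reads and a −log10 q of 3.59 at chr17:48648789-48648888 in the lncRNA gene LINC02086. It was the only summit in a stretch of 555.9 kb. The coding genes next to HOXA and HOXB also had no transcript-end peak: SKAP2, 97.8 kb away, had 3 peaks in its window but 0 at a transcript end, EVX1 had 0 peaks, SKAP1 had 5 with 0 at an end, and TTLL6 had 0. Next to HOXC, CALCOCO1 (211.1 kb away, 16 reads at the tallest) and SMUG1 (65.2 kb, 26 reads) had one. HOXD had a neighbour of each kind, with no peak in EVX2 only 8.8 kb upstream of HOXD13 and a transcript-end peak of 36 reads in MTX2, 78.5 kb past HOXD1.

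**Figure D3:**
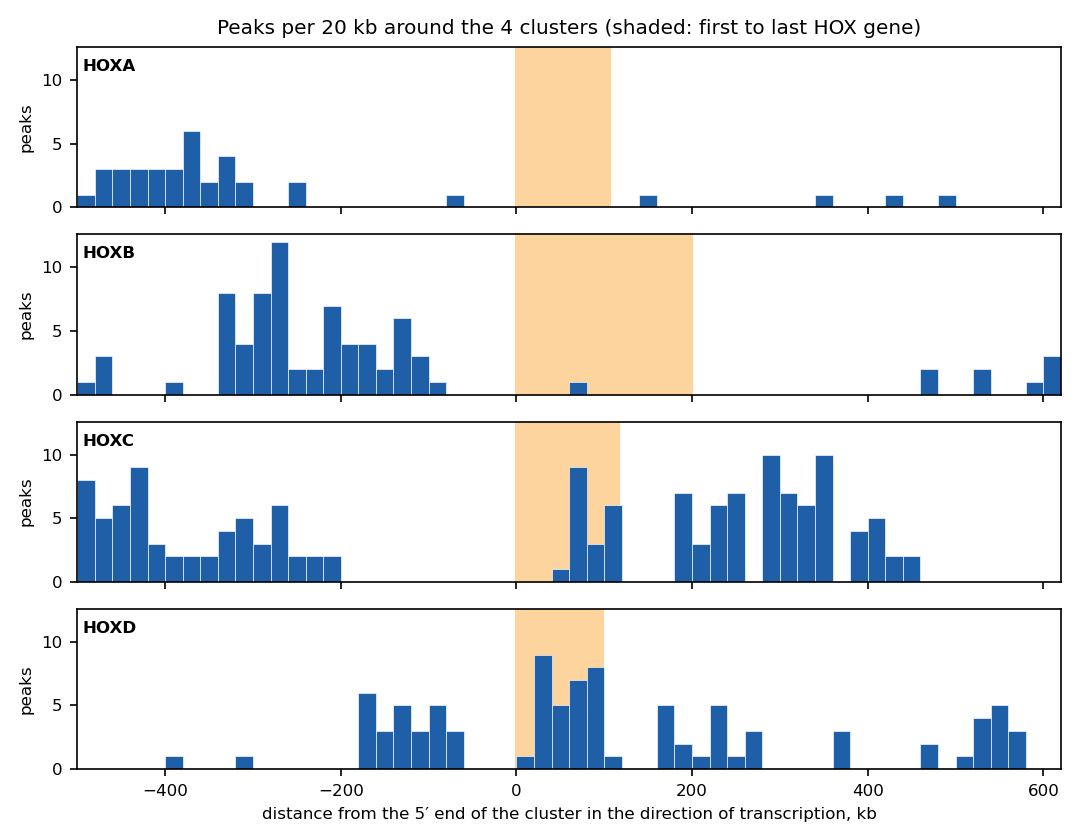
Number of peaks in 20-kb bins from 500 kb before to 620 kb after the 5′ end of each cluster, in the direction of transcription, with the span from the first to the last HOX gene shaded. HOXA has 0 peaks and HOXB has 1 in the shaded span, whereas in HOXC and HOXD the peaks lie inside it with empty stretches on one or both sides.

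Where the peaks lay within the genes differed from the bulk of the list. The downstream share differed mainly through peaks that lie in genes on the opposite strand. Of the 49 peaks, 19 (38.8%, 95% Wilson interval 26.4 to 52.8) were at a transcript end of a HOX gene, 4 (8.16%, 3.22 to 19.2) in an exon, 13 (26.5%, 16.2 to 40.3) in an intron and 13 (26.5%, 16.2 to 40.3) downstream, that is more than 600 bp past the last annotated end. The intervals cover counting error only, and neighbouring peaks can share a transcript. Over the 165573 peaks in windows of all protein-coding genes the shares were 17.7%, 9.46%, 70.7% and 2.14%. HOX genes are short, and in the 36921 peaks of coding genes in the length range of the 12, the shares were 33.3%, 14.6%, 43.1% and 8.94%. HOX peaks had a median of 22 reads (quartiles 18 and 32) against 11 (7 and 17) in all coding windows and 17 in the length range. The medians were closest at the transcript ends: HOX transcript-end peaks had a median of 19 reads against 17, intron peaks 18 against 10 and downstream peaks 31 against 15. The downstream share and median rest on peaks in or at opposite-strand genes, which held 11 of the 13 (84.6%). In the length range 37.9% of downstream peaks lay in or at such genes. Without these peaks 29 HOX peaks remained, of which 2 were downstream. Under the same rule the length range kept 2050 downstream peaks, beside 9091 transcript-end, 4387 exon and 13514 intron peaks. A higher downstream share of HOX peaks than in the length range is therefore not shown outside opposite-strand genes. The 2 HOX downstream peaks outside such genes, both past HOXC4, had a median of 20.5 reads. Downstream peaks outside such genes had 15 in all coding windows and 17 in the length range. For the 13 transcript-end peaks outside them the median was 18, against 16 in all coding windows and 20 in the length range. For the 11 intron peaks it was 21, against 9 and 14.

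**Figure D4:**
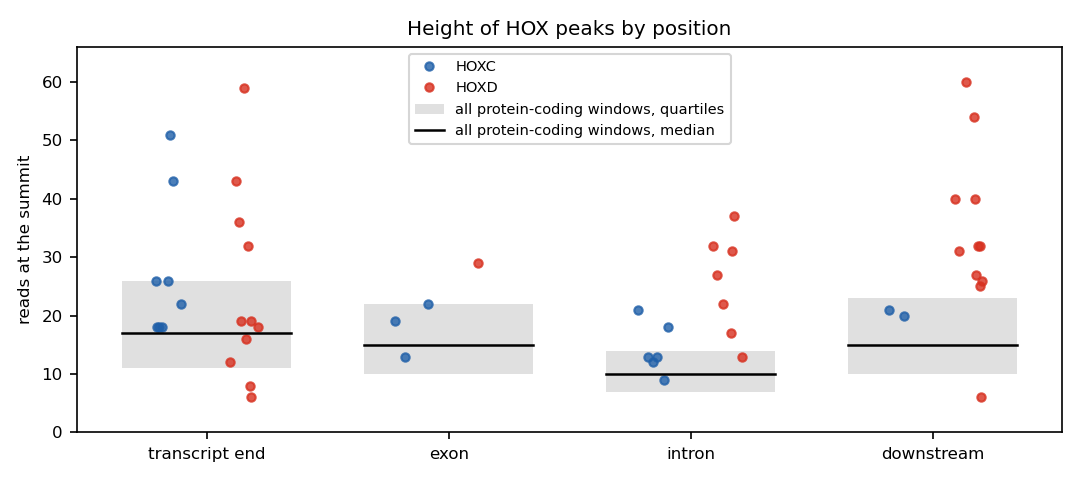
Reads at the summit of each HOX peak by position, for HOXC and HOXD, with the median and quartiles of all protein-coding windows as black lines and grey boxes. HOX transcript-end peaks (median 19) lie around the median of 17, whereas downstream HOX peaks (median 31) mostly lie above the upper quartile of 23, and all that do are in HOXD, inside a gene on the opposite strand.

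Downstream peaks lay mainly past the HOXD genes, and there all 11 lay inside a gene on the opposite strand, so they cannot be given to HOXD transcripts. Of the 12 HOX genes with a transcript-end peak, 8 (66.7%) also had a peak more than 600 bp past their last annotated end, compared with 2961 of 7134 (41.5%) coding genes in the same length range and 4911 of 13513 (36.3%) of all. Without peaks in or at the end of an opposite-strand gene, 3 of the 12 (HOXC4, HOXC9 and HOXD4) had one, against 1477 of 7134 (20.7%) and 2440 of 13513 (18.1%) under the same rule. HOXD9 had 4 such peaks, all inside HOXD-AS2, at 1073, 2613, 2965 and 3594 bp past its end with 31, 25, 54 and 40 reads, of which the heights of 54 and 40 were above the 36 reads at its annotated end. HOXD3 also had 4, all inside HAGLR, at 1048, 1302, 1886 and 2602 bp with 60, 32, 26 and 40 reads, the first of which was the tallest of all 49 peaks (chr2:176174097-176174240). HOXD10 had 27 reads at 2215 bp, more than the 12 at its own end. HOXD8 had 32 reads at 1336 bp and HOXD4 32 reads at 2764 bp, a place that is also an intron of HOXD3. In HOXC the downstream peaks were lower: HOXC4 had 21 and 20 reads at 1026 and 1274 bp, and HOXC9 had 13 at 918 bp, a place that is also an intron of HOXC6. HOXD1 had 6 reads at 683 bp.

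Because the list has no strand, a peak cannot be given to a HOX gene or to a gene on the other strand when both are there. Antisense lncRNAs lie across both clusters, and 20 of the 49 peaks lay inside an opposite-strand gene or within the transcript-end window of one. HAGLR, a lncRNA antisense to the end of HOXD3 and the region past it, had 5 HOX peaks at its annotated ends, with 43, 32, 60, 32 and 40 reads, which include the tallest transcript-end and downstream peaks of HOXD3. HOXD-AS2, antisense to the region of HOXD8 and HOXD9, had 3 at its ends (29, 59 and 32 reads) and 10 inside its body, and the 59-read peak is the one counted for HOXD8. HOXC-AS1 had 2 at its ends with 13 and 18 reads, both in introns of HOXC9 and HOXC6 transcripts. The 20 peaks had a median of 31.5 reads and the other 29 a median of 19. The strand of origin of the 20 peaks cannot be told apart in this list. Without them, 9 HOX genes (23.1%) still had a transcript-end peak, against 54.0% of all protein-coding genes under the same rule, while HOXD1, HOXD8 and HOXD9 had none. HOXD3 was among the 9 only through a peak of 16 reads at chr2:176139570-176139669, with AATACA 22 bp before its edge. That peak lay at the end of an annotated transcript that ends upstream of the HOXD3 stop codon. The 43-read and 32-read peaks of HOXD3 after the stop codon were among the 20. The 16-read peak had a −log10 q of 4.55 and the HOXD13 peak 4.76. Neither gene therefore kept a transcript-end peak outside opposite-strand genes at the cutoff of 5.

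Hexamers give a partial view of strand. The study's 12 hexamers were searched: AATAAA and ATTAAA as the common forms, and as rarer forms ACTAAA or AGTAAA, with CATAAA or GATAAA or TATAAA, with AATACA or AATAGA or AATATA, and with AAGAAA or AATGAA. The search covered the 100 bp that end at the 3′ edge of a peak, and on the opposite strand the 100 bp that end at its other edge. Of the 49 HOX peaks, 33 (67.3%, 53.4 to 78.8) held at least 1 on the HOX strand and 30 (61.2%, 47.2 to 73.6) on the other. In all coding windows the shares were 59.2% and 40.7%. AATAAA alone was present in 17 (34.7%) on the HOX strand and 9 (18.4%) on the other, against 27.5% and 10.4%. Among the 20 peaks in or at an opposite-strand gene, 3 had a hexamer on the HOX strand only, 9 on both, 3 on the opposite strand only and 5 on neither. Among the other 29 these counts were 6, 15, 3 and 5. A match is a description of the sequence and does not show that the site was used.

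Transcript-end peaks had the highest share with a hexamer of the HOX peaks. It was present on the HOX strand in 16 of 19 (84.2%) and AATAAA in 10 of 19 (52.6%), against 78.3% and 46.6% of coding transcript-end peaks. The 3′ edge lay within 10 bp of an annotated end in 11 of the 19 (57.9%), compared with 41.1% over all coding genes, and these 11 peaks came from 10 of the 12 genes. The hexamer that began nearest 21 bp before the edge was AATAAA in 9 of the 11. It began 18 to 38 bp before the edge in all 11, a spacing that this choice favours. The 2 genes without such an edge were HOXC9 and HOXD8. The 59-read HOXD8 peak was 495 bp wide, overlapped an end of HOXD-AS2 and had ATTAAA 45 bp before its edge. Of intron and downstream HOX peaks, 7 of 13 each (53.8%) had a hexamer.

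Priming of the library oligo on genomic A stretches can also give peaks. Within 50 bp past the 3′ edge, 25 bases with 22 or more A were found at 1 of the 49 HOX peaks (2.04%), against 5.11% in all coding windows, and 25 bases with 18 or more A at 3 (6.12%) against 23.7%. At the looser cutoff the 3 included the broad HOXC9 peak (52% A in the 50 bp) and the 54-read peak past HOXD9 (56%). The other HOXC9 transcript-end peak, of 18 reads, met neither cutoff but had 56% A there. The strict case, also among the 3, was the tallest exon peak of HOXC, at chr12:54012168-54012337 in the last exon of HOXC8 with 22 reads. Its 30 bases at chr12:54012327-54012356 (plus strand, AATAAA in capitals 7 bp before the edge) show both the hexamer and the run of A.
HOXC8 A-rich site: aaaaAATAAAaatcaaaaaaaaaaaaaaga
Whether the reads at these A-rich sites come from a tail or from a genomic run was not tested.

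HOXC8 had several peaks within its last exon. The first, with 13 reads, ended 5 bp before the end of the stop codon, and the next 3 ended 515, 956 and 1388 bp after it with 19, 22 and 22 reads. The last of these is the annotated end. HOXC8 is a known target of miR-196, whose genes lie inside the HOX clusters, one of them (MIR196A2) in HOXC itself at chr12:53991762-53991783. The mature miRNAs, from RefSeq (GRCh38), are printed with the seed, bases 2 to 8, in capitals. miR-196a and miR-196b share a seed, and miR-10a has another.
miR-196a-5p: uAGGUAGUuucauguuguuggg
miR-196b-5p: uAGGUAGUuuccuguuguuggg
miR-10a-5p: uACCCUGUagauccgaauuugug
The seed match ACTACCT was searched between the stop codon and the last transcript-end peak of each of the 12 genes, on the HOX strand. It was found 3 times in HOXC8, at 128, 864 and 1004 bp after the stop codon, and in no other of the 12 genes. The 30 bases around each match (plus strand, match in capitals) lie at chr12:54011494-54011523, chr12:54012230-54012259 and chr12:54012370-54012399.
HOXC8 site 1: acactcacaactctaACTACCTgtcagata
HOXC8 site 2: ataaatctttaacatACTACCTaaagggaa
HOXC8 site 3: ccagcgtattttatcACTACCTatagaaag
If each peak is a transcript end, the one at 515 bp leaves 1 match, that at 956 bp leaves 2 and the annotated end leaves 3. The peak at 956 bp is the A-rich site above, and whether these peaks are ends of transcripts was not tested. The 1388 genomic bases after the stop codon were also searched for 19605 canonical coding transcripts. Of these, 1017 (5.19%) held at least 1 ACTACCT and 4 (0.0204%) held at least 3. HOXC8 itself is in both counts. This length was set by HOXC8, and the stretch can run past an annotated end or into an intron. It is therefore not the same search as in the 12 HOX genes, which stopped at their last transcript-end peak. The miR-10a seed match ACAGGGT was found in none of the 12 genes. No miRNA was measured in these libraries, so a match is a sequence only.

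**Figure D5:**
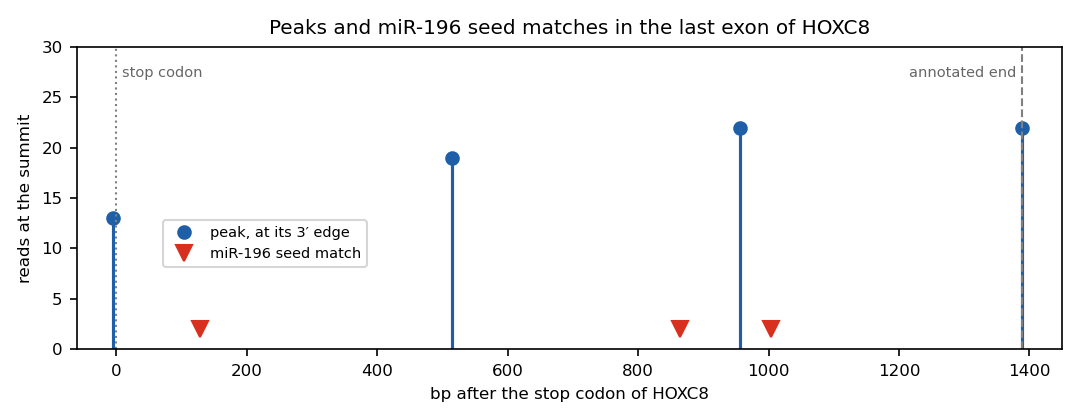
Reads at the summit of the 4 peaks in the last exon of HOXC8, each drawn at its 3′ edge in bp after the stop codon (dotted line), with the 3 miR-196 seed matches as triangles and the annotated end as a dashed line. The matches at 128, 864 and 1004 bp lie before 3, 2 and 1 of the peaks that follow the stop codon.

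Other HOX genes also had more than 1 peak after the stop codon. HOXC4 had 3 transcript-end peaks, 376, 825 and 1476 bp after it with 26, 51 and 18 reads, of which the middle one is the AATAAA site shown above. HOXC9 had 2, at 424 bp (26 reads) and 1258 bp (18 reads). HOXD3 had 2 at 834 bp (43 reads) and 1203 bp (32 reads), both also at ends of HAGLR. HOXD4 had 19 reads at 283 bp and 18 at 568 bp, and HOXD8 had 59 at 757 bp and 19 at 1662 bp. HOXC5, HOXC6, HOXD1, HOXD9, HOXD10 and HOXD13 had 1 each, 706 to 1213 bp after the stop codon.

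Intronic peaks were found in 4 HOX genes with long annotated transcripts, and part of them belong to genes nested inside. HOXC6 had 11 peaks in its introns, since its longest transcripts start upstream of HOXC9, and 7 of these were at an end, in an exon or downstream of another HOX gene. HOXC4 had 5, of which 2 were ends of HOXC5 and HOXC6. HOXD3 had 9, of which 2 were ends of HOXD4 and 1 lay downstream of it. Of the 13 peaks left with the intron class, counted once each, 4 lay in an intron of a canonical transcript, intron 1 of HOXD3, and 9 in introns of other transcripts only. The tallest in HOXC was in HOXC4 (chr12:54052361-54052468, 21 reads), with AATATA 67 bp before its edge. In HOXD it was in HOXD3 (chr2:176140256-176140589, 37 reads), with no hexamer. Another HOXD3 intron peak, of 22 reads at chr2:176150503-176150617, lay in the transcript-end window of MIR10B, which is embedded there. The only exon peak of HOXD was in HOXD8 (chr2:176131307-176131413, 29 reads), also at an end of HOXD-AS2.

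Of 18 HOX-embedded or antisense lncRNAs, 3 had a transcript-end peak, against 21.4% of all lncRNA genes: HAGLR (60 reads at the tallest), HOXD-AS2 (59) and HOXC-AS1 (18), all from peaks already counted for HOX genes. HOTAIR in HOXC, HOTTIP and HOTAIRM1 in HOXA and the HOXB antisense genes had none. Of 6 embedded miRNA genes only MIR10B had one (22 reads), against 10.9% of all miRNA genes. With lists this small these counts are descriptions only. Of the 8 ParaHox and Evx genes, the nearest relatives of the HOX genes, GSX2 alone had one, with 5 reads.

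Genes known to act with or on HOX genes nearly all had 3′ ends. Of the 9 TALE homeodomain genes, whose proteins bind DNA together with HOX proteins, 8 had a transcript-end peak, with a median of 38 reads. The tallest were PBX2 (58), PKNOX1 (55), MEIS1 (54) and MEIS3 (39), and PKNOX2 had none. All 23 Polycomb genes, which keep HOX clusters silent in many tissues, had one, with a median of 32 reads, led by PCGF2 (73), CBX8 (63), CBX6 (59) and CBX2 (58). All 9 Trithorax-type genes, which keep HOX genes active, had one, with a median of 31 reads, led by KDM6B (46), MEN1 (44), WDR5 (41) and KMT2A (40). The counts of these lists stand beside 67.4% of all coding genes with such a peak.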

How the data were processed

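Poly(A) 3′-seq libraries of IMR-32 cells were prepared in duplicate. The authors, by their methods, trimmed reads, mapped them to GRCh38 keeping up to 20 placements, merged all samples and called peaks without a control, extending reads to 100 bp. The submitters' processing notes name STAR 2.5.1b, deepTools 2.5.4, SAMtools and MACS2 2.1.1. The deposited list gives a fold enrichment (ratio of pileup plus 1 to background plus 1), a −log10 p-value and a −log10 q-value per peak. The deposited score was not used, and another deposited column is the summit offset.

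Pileup was solved from fold and −log10 p. It was tested on simulated data, where 100% of 20000 peaks were recovered, and the largest misfit of −log10 p in the real list was 0.000172. Summits were assigned with Gencode release 44 (the study used release 27). Each peak took 1 class in the order transcript end, exon, intron, downstream. Its 3′ edge was the edge nearest the 3′ end of the HOX transcript. Python 3.11.15, pandas 2.3.3 and statsmodels 0.14.6 were used.

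All HOX genes were accounted for, each with its tallest transcript-end peak, and each cluster with its tallest exon, intron and downstream peak. In each other list at most 4 genes were named with values besides those at a HOX peak. The genes and lists were chosen with earlier results of these data known. Shares have 95% Wilson intervals. The alternatives tried were other q cutoffs, windows, annotation rules, hexamer and A-stretch definitions and, chosen after seeing the data, leaving out peaks at opposite-strand genes.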

Additional observations from a re-analysis of the deposited data

How the results depend on the processing

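No paired analysis was possible because 1 list holds the merged reads of all 6 libraries, and for the same reason no replicate could be left out. Of 40 alternative values, 30 stayed within the limits set for them and 10 did not. With −log10 q of at least 20, which by construction leaves fewer peaks, 6 HOX peaks remained in 5 genes, of which 3 (HOXC4, HOXC6 and HOXD8) had a transcript-end peak, the median height was 52.5 reads, the share with a hexamer was 83.3% and the share with an A stretch was 0.0%. The hexamer share of 67.3% also depended on the search: it was 34.7% with AATAAA alone, 40.8% with AATAAA or ATTAAA and 38.8% with a window that ended at the summit. Without peaks in or at the end of an opposite-strand gene, chosen after seeing the data, 29 HOX peaks remained. With −log10 q of at least 5 there were 39 peaks, with 1 kb past the end 37, with none 33, and after merging peaks within 200 bp 44. The 12 genes with a transcript-end peak were also 12 with 100 bp on either side of the end, with canonical transcripts or with 1 gene per peak. Depth per library is unknown, so no limit could be set on transcripts without a peak.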
